A study of Mus musculus with 12 samples.

Results

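The genes described here are 50 subunits of ion channels that set the excitability of neurons. They were the rows of the deposited expression table that carried one of 50 chosen gene symbols of sodium, calcium, potassium and HCN channels, out of 23352 gene entries, and each had a row of its own. The table comes from mouse hippocampus, with poly-A selected RNA in 4 groups of 3 libraries, all on the C57BL/6J strain. The N40K-Tg groups, at 3 and at 12 months of age, carry a transgene for N40K, a truncated form of the spliceosomal protein U1-70K (gene Snrnp70), driven in neurons by a modified CaMKIIa promoter in the single line Tg396. The wild-type groups are littermates of the same ages without the transgene. The labels do not give the sex of the mice. The design asks how N40K-Tg hippocampus differs from wild type at each age.

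An action potential begins when voltage-gated sodium channels open. Potassium channels end it and set how soon the next one can follow. Calcium channels turn the spike into transmitter release and gene regulation, while HCN and GIRK channels tune the resting potential. Most of these channels are built from a pore-forming alpha subunit and accessory subunits that set its gating and its number at the membrane, and mutations in many of the genes cause epilepsy or ataxia.

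Levels are in FPKM, which scales fragment counts to transcript length (per kilobase) and to mapped reads (per M, mega), so genes can be compared per length. Approximate depth ran from 39.9 to 97.4 M reads per library, and depth was not given by the files themselves. Differences are in log2(FPKM + 1), a scale on which changes of weakly expressed genes look smaller. A gene is called higher or lower where the Benjamini-Hochberg adjusted p of limma, over the 13945 entries with at least 1 FPKM in at least 3 libraries, was under 0.05. Of the 50 channel genes, 47 reached 1 FPKM in every library and 49 were tested. Hcn4, a slow pacemaker channel of the heart and thalamus, was the gene left out, at 0.148 to 0.341 FPKM.

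Snrnp70, whose reads can include those of the transgene, read 161 to 179 FPKM in wild type and 377 to 401 in N40K-Tg at 3 months, and 96.0 to 138 and 259 to 320.0 at 12 months, so every library matched its genotype label. Xist, which marks female mice, was at 13.5 to 17.3 FPKM in wild-type replicates 2 and 3 and N40K-Tg replicate 3 at 3 months and at most 0.112 in the other 9 libraries. The numbers in the library names run in separate blocks for the 2 ages, so age and block cannot be told apart. The hippocampal marker lists were present in every library: 15 of 15 markers of CA1 and CA3 pyramidal neurons were tested, with a summed level of 564 to 662 FPKM, and 14 of 14 dentate granule markers, at 128 to 184 FPKM. Of the pyramidal markers 2 were called higher and 2 lower in N40K-Tg at 3 months, and 1 higher and 3 lower at 12 months. Of the dentate granule markers 1 was called higher and 0 lower at 3 months, and 0 higher and 2 lower at 12 months. Beside these and the marker lists below, 7.95% of all entries were called higher and 3.49% lower at 3 months. At 12 months the shares of all entries were 11.2% and 7.71%. With age, 2 dentate granule markers were called higher and 1 lower in wild type, and 2 higher and 6 lower in N40K-Tg. In N40K-Tg this is 14.3% higher and 42.9% lower, beside 15.1% and 36.5% of all entries. In wild type it is 14.3% and 7.14%, beside 12.6% and 29.0%. Markers of the choroid plexus, which adjoins the hippocampus, differed widely between libraries. Of 16 markers 15 were tested, and 0 were called by limma, or had an unadjusted p under 0.05, in any comparison. Their summed level was 6942 FPKM in wild-type replicate 3 and 2088 in N40K-Tg replicate 2 of 3 months and 167 to 238 in the other libraries of that age. At 12 months it was 1349 to 2737 in wild type, and 92.1 and 335 in N40K-Tg replicates 1 and 2 against 3783 in replicate 3. Ttr, its most abundant gene, ran from 25.2 to 5813 FPKM. Of 14 endothelial and mural markers 0 were called at 3 months (0 at an unadjusted p under 0.05) and 4 were higher in N40K-Tg at 12 months, with a summed level of 154 to 163 FPKM in wild type and 185 to 193 in N40K-Tg at 12 months, and 217 to 244 and 215 to 252 at 3 months. Of 14 oligodendrocyte markers 0 were called at either age, although all 14 estimates were below 0 at both ages, with 3 and 4 at an unadjusted p under 0.05. They summed to 1924 to 2346 and 1711 to 2237 FPKM in wild type and N40K-Tg at 3 months and 1715 to 1862 and 1543 to 1637 at 12 months. With age in wild type 10 endothelial and mural (71.4%) and 7 oligodendrocyte markers (50%) were called lower, beside 29.0% of all entries. In N40K-Tg 4 (28.6%) and 6 (42.9%) were called lower with age, beside 36.5%. With age 1 endothelial and mural marker was called higher in wild type and 2 in N40K-Tg. For the genotype difference averaged over both ages, 2 oligodendrocyte markers were called lower (14.3%, beside 9.54% of all entries). In that comparison 2 endothelial and mural markers were called higher (14.3%, beside 15.5%). Of 9 oligodendrocyte precursor markers tested 3 were lower in N40K-Tg at 12 months, as was 1 of 14 microglial markers, and 1 of 14 astrocyte markers was higher at 3 months. No marker of these lists was at 0 in all 12 libraries, and their part in the channel results was not tested.

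The labels do not say which mice shared a litter or whether RNA was pooled, so p-values measure the spread between these libraries, which may be technical.

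At 3 months 1 of 49 channel genes was called higher in N40K-Tg (Cacnb1) and 3 were called lower (Scn1a, Cacna2d3 and Kcna1). Among all entries tested, 7.95% were called higher and 3.49% lower, 11.4% in all. At 12 months 5 channel genes were called higher (Cacna1b, Cacna1g, Kcnma1, Kcnj3 and Kcnj9) and 4 lower (Scn1a, Cacnb3, Kcnip2 and Kcnab2), against 11.2% and 7.71% of all entries (18.9% in either direction). In percent, the channel genes called were 2.04 higher and 6.12 lower at 3 months and 10.2 higher and 8.16 lower at 12 months. At 3 months this is below the share of all entries for higher calls and above it for lower calls, and at 12 months it is near that share in both directions. The median difference over the channel genes was -0.04 at 3 months and 0.03 at 12 months, beside 0.02 and 0.01 over all entries. Scn1a was the 1 gene called at both ages in the same direction (6.56% of all entries), and 12 were called at either age (23.7% of all entries). With the genotype difference averaged over both ages, 8 were called higher and 6 lower, against 15.5% and 9.54% of all entries (25.0% in all). Under quantile normalization these counts were 7 and 6, while the share of all such calls that were higher went from 61.9% to 49.8%.

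**Figure D1:**
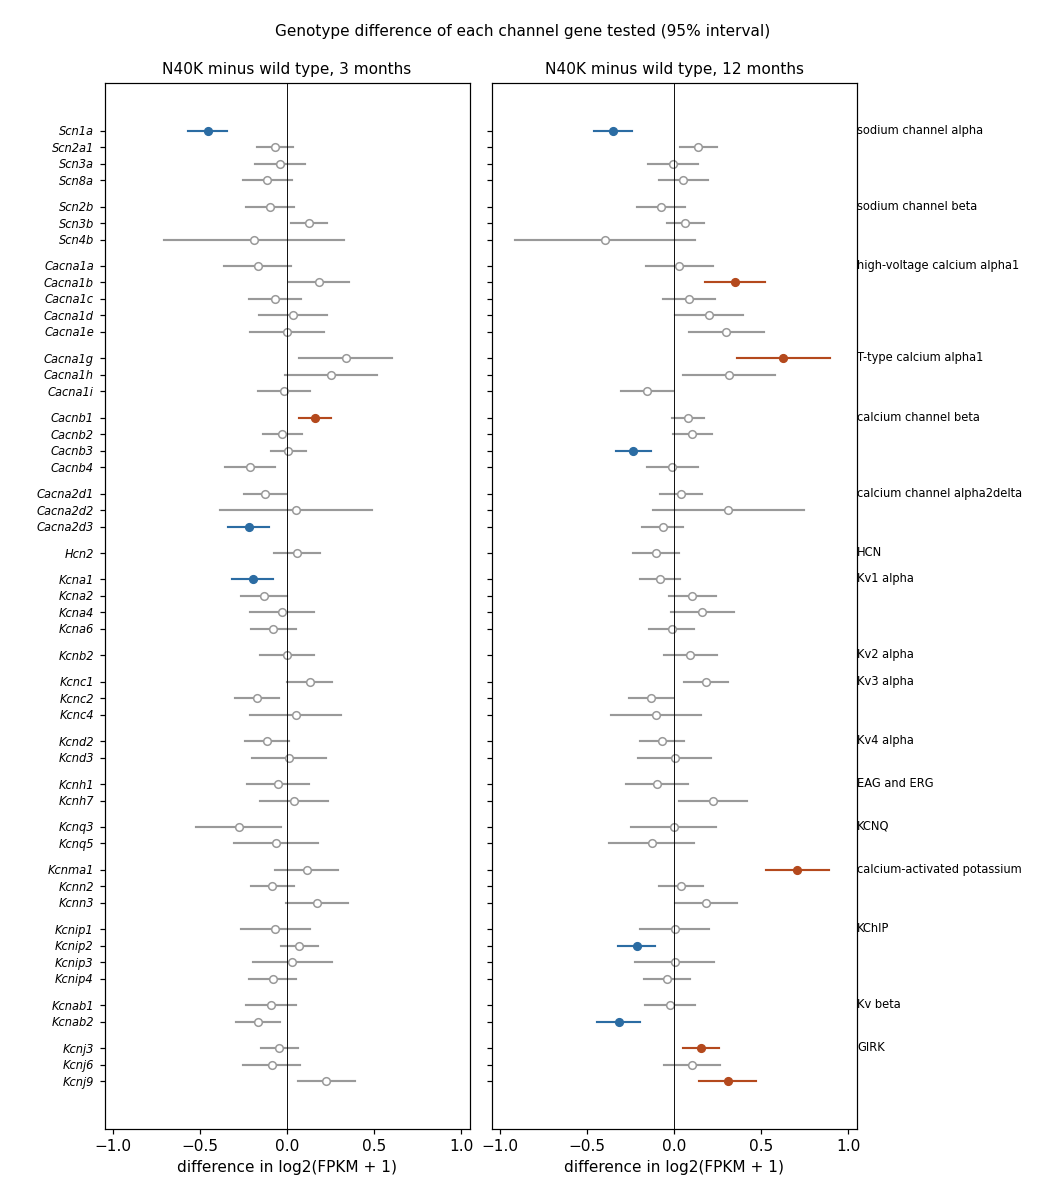
Difference between N40K-Tg and wild type in log2(FPKM + 1) for the 49 channel genes tested, at 3 months (left) and 12 months (right), grouped by role. Points are limma estimates with 95% intervals from groups of 3 libraries, filled red or blue where called higher or lower. Scn1a lies at -0.46 and -0.35, and Kcnma1 at 12 months lies farthest to the right at 0.71.

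These counts depend on single libraries at 3 months. Leaving out wild-type replicate 1 or 2 or N40K-Tg replicate 1 of that age left 1 gene called lower, and leaving out wild-type replicate 3 gave 5. The count of genes called higher at 3 months became 0 without wild-type replicate 2 or 3 or N40K-Tg replicate 1 or 3 of that age, 2 without N40K-Tg replicate 2, and 3 without wild-type replicate 2 of 12 months. At 12 months the count of genes called higher was 3 without wild-type replicate 2 or N40K-Tg replicate 1 or 2 of that age and 8 without wild-type replicate 3. Of all entries called at 3 months 69.5% were higher, and this share was 54.6% after median-ratio scaling of the libraries and 54.4% after quantile normalization. Under those scalings 0 channel genes were called higher at 3 months, with 3 and 5 lower. With Xist as a covariate, Scn1a was the 1 channel gene called at 3 months, and limma adjusted p was 0.0544 for Kcna1, 0.0529 for Cacna2d3 and 0.0685 for Cacnb1.

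Most channel genes were not called. Of the 45 not called at 3 months, 43 had a 95% interval within 1.5-fold on the scale of FPKM + 1, all but Scn4b and Cacna1g. Of the 40 not called at 12 months, 38 had such an interval, all but Scn4b and Cacna2d2. For weakly expressed genes, such as Kcnh7, Kcnb2, Kcnn3 and Kcnj6, this bound allows a larger fold difference in FPKM itself. The libraries of the genotypes did not overlap for 17 of 49 genes at 3 months (34.7%) and for 21 at 12 months (42.9%), while 31.9% and 38.8% of all entries were separated in this way. Of these, 10 of the 49 genes were separated in the same direction at both ages, against 16.0% of all entries, among them Scn1a, Kcnab2, Cacna1g and Kcnj9.

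The largest fall of any channel gene at 3 months was that of Scn1a, which was also lower at 12 months. Scn1a encodes the alpha subunit Nav1.1, which drives firing of fast-spiking interneurons and whose loss of function causes Dravet syndrome. Scn1a read 10.3, 10.5 and 9.19 FPKM in wild type and 6.92, 6.83 and 7.25 in N40K-Tg at 3 months, and 14.1, 13.3 and 13.8 against 10.7, 10.5 and 10.3 at 12 months. Every N40K-Tg library was below every wild-type library of its age. The N40K-Tg mean was 0.70 times wild type at 3 months (difference -0.46 ± 0.05, SE, limma adjusted p = 0.000286) and 0.767 times at 12 months (-0.35 ± 0.05, adjusted p = 0.00117). Scn1a kept both calls in all 25 alternative analyses at each age, with adjusted p of at most 0.0111 and 0.0181. Since these are bulk samples, fewer cells of a type and less RNA per cell cannot be told apart.

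The 250 bases before the RefSeq start of Scn1a are shown because this gene was called at both ages (GRCm38.p6, chr2:66440838-66441087, minus strand). They are 46.8% G and C and hold none of the 4 motifs searched on both strands, which were the GC box GGGCGG, the cAMP response element TGACGTCA, the TATA box TATAAA and the E-box CACGTG. Capitals mark motif matches in the sequences shown, and Scn1a has none.
Scn1a: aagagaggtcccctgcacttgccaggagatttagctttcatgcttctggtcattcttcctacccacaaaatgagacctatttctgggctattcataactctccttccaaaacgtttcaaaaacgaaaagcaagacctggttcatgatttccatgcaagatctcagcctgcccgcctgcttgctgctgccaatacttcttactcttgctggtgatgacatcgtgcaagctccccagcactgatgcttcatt

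Markers of interneurons were read beside Scn1a. Of 21 markers tested, 2 were called higher in N40K-Tg at 3 months (Cort and Tac1), 1 at 12 months (Erbb4) and 0 lower at either age by limma. These higher calls are 9.52% and 4.76% of the list, against 7.95% and 11.2% of all entries. Of all entries 3.49% and 7.71% were called lower, so few lower calls would be found among 21 genes at those shares. Their summed level was 742 to 815 FPKM in wild type and 811 to 961 in N40K-Tg at 3 months, and 869 to 1008 and 851 to 905 at 12 months. Pvalb, the marker of fast-spiking interneurons, read 35.4, 28.7 and 25.4 FPKM in wild type and 21.9, 27.6 and 29.3 in N40K-Tg at 3 months, with overlapping groups (limma adjusted p = 0.486). Among 12 general neuron markers, Nefm was called lower at 3 months and Nefm, Nefl and Rbfox3 at 12 months, and 0 were called higher. The lower calls are 8.33% and 25%, against 3.49% and 7.71% of all entries. Averaged over both ages 4 were called lower (33.3%, against 9.54% of all entries). Of the 12 general neuron markers 2 had an estimate above 0 at 3 months and 3 at 12 months. Their summed level was 2145 to 2417 FPKM in wild type and 2055 to 2233 in N40K-Tg at 3 months, and 2253 to 2436 and 2164 to 2193 at 12 months. No marker of either list was at 0 in all 12 libraries, and their part in the channel results was not tested.

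The other sodium channel alpha subunits were not called between genotypes. Scn2a1 (Nav1.2), the main alpha subunit of excitatory neurons early in life, averaged 23.7 ± 1.67 FPKM (SD, n = 3) in wild type and 22.5 ± 0.30 in N40K-Tg at 3 months, and 31.3 ± 1.21 and 34.5 ± 0.169 at 12 months. Scn8a (Nav1.6), which sits at the axon initial segment of mature neurons, averaged 25.0, 23.0, 27.2 and 28.2 FPKM in the same order of groups, and Scn3a (Nav1.3), the embryonic form, 4.69, 4.55, 6.54 and 6.49. The ratio of Scn1a to Scn2a1 within a library was 0.421 ± 0.0202 in wild type and 0.311 ± 0.0131 in N40K-Tg at 3 months, and 0.439 ± 0.0204 and 0.305 ± 0.00428 at 12 months (SD, n = 3). The libraries did not overlap at either age. This ratio was chosen after its values were seen and is a description with no test.

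Of the sodium channel beta subunits, which modulate gating and anchor the channel, 0 of 3 were called between genotypes by limma, with 1 at an unadjusted p under 0.05 at 3 months and 0 at 12 months. Scn4b, the subunit of resurgent current, averaged 5.16 FPKM in wild type and 3.64 in N40K-Tg at 12 months, and these libraries did not overlap. Its 12-month difference of -0.40 was the lowest estimate of any channel gene at that age and was not called (limma adjusted p = 0.257). At 3 months Scn4b read 6.10, 4.27 and 4.06 FPKM in wild type and 7.01, 2.91 and 3.06 in N40K-Tg. The highest of these 6 values came from N40K-Tg replicate 1, and the other N40K-Tg libraries lay below every wild-type library.

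That library also stood apart in markers of the neighbouring striatum. Drd2 read 4.04 FPKM in it and 0.574 to 1.34 in the other 11 libraries, and Adora2a 2.89 against at most 0.733. The list of 16 thalamus and striatum markers summed to 112 FPKM there, while the wild-type libraries of 3 months ran from 67.9 to 98.4, the other N40K-Tg libraries of that age were at 77.5 and 66.1, and the 12-month libraries ran from 71.7 to 79.0 in wild type and 68.2 to 95.3 in N40K-Tg. Of the list 14 genes were tested and 0 were called at either age by limma. Cacna2d2 was at 9.12 FPKM in this library against 4.20 and 5.18 in its group, and Cacna1g at 12.9 against 8.36 and 10.3. How far these markers bear on the channel values of the library was not tested.

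Among calcium channels, 2 pore subunits rose in N40K-Tg at 12 months. Cacna1g encodes the T-type channel Cav3.1, which opens at low voltage and supports burst firing. Cacna1g read 7.29, 6.06 and 7.90 FPKM in wild type and 11.6, 11.6 and 11.0 in N40K-Tg at 12 months, and 7.72, 8.35 and 7.98 against 12.9, 8.36 and 10.3 at 3 months. The groups were far apart at 12 months and barely separate at 3 months. The 12-month mean was 1.61 times wild type (difference 0.63 ± 0.12, SE, limma adjusted p = 0.00579), and the 3-month difference of 0.34 ± 0.12 was not called (adjusted p = 0.105). Averaged over both ages the difference was 0.48 ± 0.09 (adjusted p = 0.00214), and 0.41 (adjusted p = 0.00198) without N40K-Tg replicate 1 of 3 months.

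Cacna1b encodes the N-type channel Cav2.2, which triggers transmitter release. Cacna1b read 12.9, 12.0 and 15.0 FPKM in wild type and 17.5, 17.0 and 17.0 in N40K-Tg at 12 months, and 9.92, 10.9 and 10.2 against 13.2, 10.9 and 11.6 at 3 months. Groups did not overlap at 12 months and did at 3 months. The N40K-Tg mean was 1.29 times wild type at 12 months (0.35 ± 0.08, limma adjusted p = 0.0113) and the difference at 3 months was 0.18 ± 0.08 (adjusted p = 0.165).

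The remaining pore subunits of calcium channels were not called at a single age. Cacna1h (Cav3.2), also a T-type channel, averaged 18.0, 21.6, 15.9 and 19.8 FPKM in wild type and N40K-Tg at 3 months and then at 12 months, and was called higher averaged over both ages (0.28 ± 0.08, limma adjusted p = 0.0315). Single libraries ended that call. Adjusted p was 0.0757 without wild-type replicate 2 of 3 months, 0.0647 and 0.0734 without N40K-Tg replicates 1 and 2 of 3 months, and 0.0620 and 0.0716 without N40K-Tg replicates 1 and 2 of 12 months. Cacna1e (Cav2.3), the R-type channel, had a difference of 0.30 ± 0.10 at 12 months (adjusted p = 0.0537). Differences of Cacna1a (P/Q-type), Cacna1c and Cacna1d (L-type) and Cacna1i (Cav3.3) ran from -0.17 to 0.20 over both ages, with none called.

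Of the accessory calcium channel subunits, Cacnb3, Cacnb1 and Cacna2d3 were each called at 1 age. Cacnb3, a cytoplasmic beta subunit that raises the number of channels at the membrane, read 67.6, 68.5 and 65.6 FPKM in wild type and 57.7, 58.1 and 55.0 in N40K-Tg at 12 months, and 75.8, 72.4 and 68.0 against 70.8, 71.0 and 75.2 at 3 months. The 12-month groups were separate and the 3-month groups overlapped. The 12-month mean was 0.847 times wild type (-0.24 ± 0.05, limma adjusted p = 0.00592), and the 3-month difference was 0.01 ± 0.05. Cacnb1, best known from skeletal muscle but present in brain, read 38.0, 34.9 and 35.5 FPKM in wild type and 41.7, 38.8 and 41.1 in N40K-Tg at 3 months, and 35.7, 36.4 and 35.8 against 37.4, 38.8 and 37.8 at 12 months. Every N40K-Tg library was above every wild-type library of its age. The 3-month mean was 1.12 times wild type (0.16 ± 0.04, adjusted p = 0.0308).

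The Cacnb1 call at 3 months was lost in 12 of 25 alternatives. Its adjusted p was 0.120 and 0.0949 without wild-type replicates 2 and 3 of that age and 0.0901 and 0.0970 without N40K-Tg replicates 1 and 3. With each library's trend against transcript GC content removed, the Cacnb1 difference was 0.07 (adjusted p = 0.376).

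Cacna2d3, an alpha2delta subunit that brings channels to presynaptic sites, read 36.8, 36.2 and 33.2 FPKM in wild type and 30.2, 28.2 and 32.4 in N40K-Tg at 3 months, and 35.1, 34.1 and 34.7 against 34.1, 32.1 and 32.9 at 12 months. Its groups did not overlap at 3 months and lay edge to edge at 12 months. The 3-month mean was 0.854 times wild type (-0.22 ± 0.05, limma adjusted p = 0.0229), and the call was lost in 8 of 25 alternatives. Among them were leaving out wild-type replicate 1 (0.0821) or 2 (0.0863) or N40K-Tg replicate 1 (0.0528) or 2 (0.0863) of that age. Cacna2d1, the target of gabapentin, was not called at either age, and neither were Cacna2d2, Cacnb2 or Cacnb4.

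**Figure D2:**
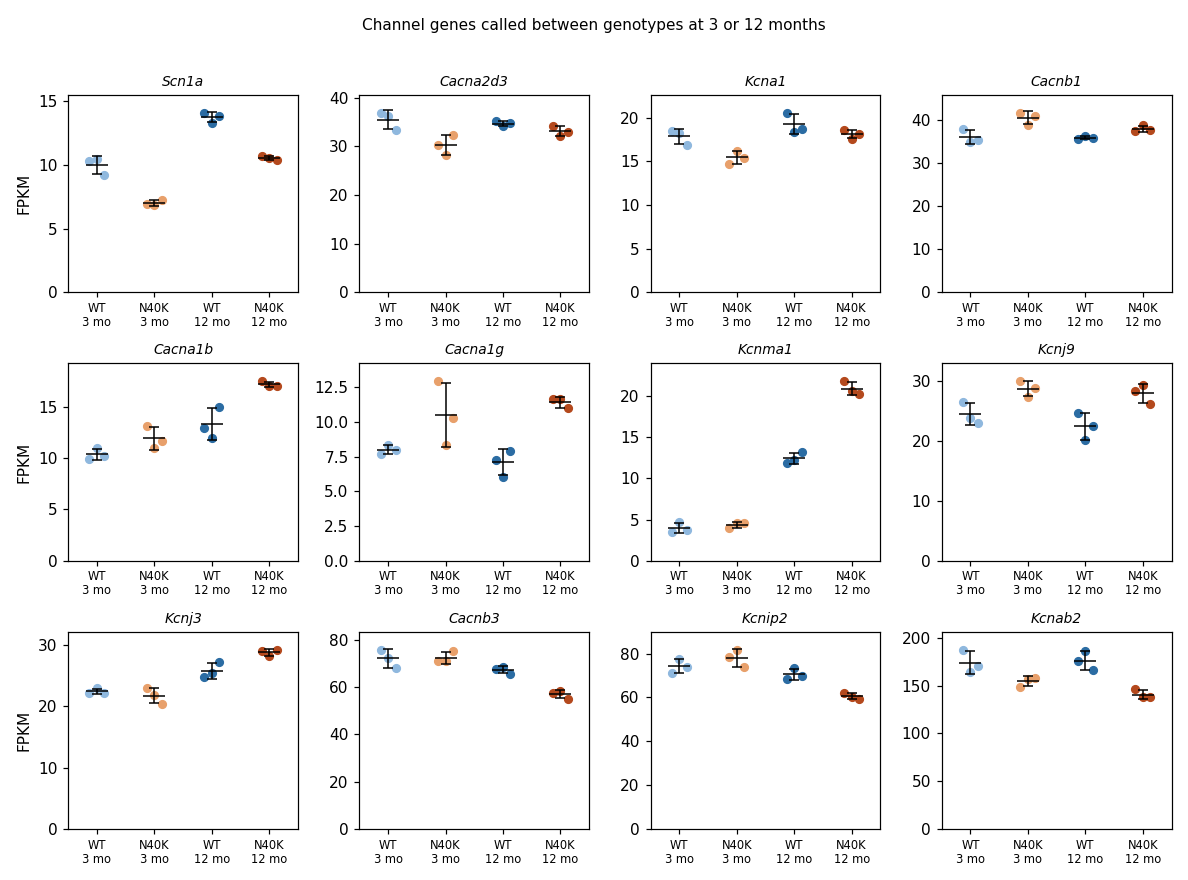
FPKM of the 12 channel genes called between genotypes at 3 or at 12 months, by group. Each point is 1 library, and the bars are the mean and SD of 3 libraries, with axes starting at 0. Scn1a is lower in N40K-Tg at both ages, and Kcnma1 at 12 months runs from 20.3 to 21.8 FPKM in N40K-Tg and from 11.9 to 13.2 in wild type.

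Outside the calcium-activated channels, among voltage-gated potassium, KCNQ and HCN channels, Kcna1 was the 1 pore subunit called at a single age. Kcna1 encodes Kv1.1, a low-threshold channel of axons whose mutations cause episodic ataxia. Kcna1 read 18.5, 18.2 and 16.9 FPKM in wild type and 14.7, 16.2 and 15.4 in N40K-Tg at 3 months, and 20.6, 18.4 and 18.8 against 18.6, 17.6 and 18.1 at 12 months. The genotypes were separate at 3 months and overlapped at 12 months. The 3-month mean was 0.865 times wild type (-0.20 ± 0.05, limma adjusted p = 0.0360), and the call was lost in 9 of 25 alternatives. Adjusted p rose to 0.112 and 0.119 without wild-type replicates 1 and 2 of 3 months, 0.106 and 0.0923 without N40K-Tg replicates 1 and 3 of 3 months, and 0.0528 and 0.0509 without N40K-Tg replicates 2 and 3 of 12 months.

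Of the 3 Kv3 genes among the 50, whose channels allow fast spiking, 2 were called when averaged over both ages, in opposite directions. Kcnc1 (Kv3.1) was called higher (0.16 ± 0.04, limma adjusted p = 0.0179), with group means of 11.1, 12.2, 12.7 and 14.6 FPKM in wild type and N40K-Tg at 3 months and then at 12 months. Kcnc2 (Kv3.2) was called lower (-0.15 ± 0.04, adjusted p = 0.0168), with 12.7, 11.1, 16.0 and 14.5 FPKM. Neither was called at a single age. The Kcnc1 call was lost with the GC trend (0.11, adjusted p = 0.0506) or the length trend (0.12, adjusted p = 0.0585) removed, and the Kcnc2 call with the replicate block (-0.15, adjusted p = 0.0764). Kcnc4 was at -0.03 averaged over both ages (adjusted p = 0.839). At single ages, the differences of Kcnc4, of the other Kv1 genes Kcna2, Kcna4 and Kcna6, of Kcnb2 (Kv2), of the A-type channels Kcnd2 and Kcnd3, of the ether-a-go-go channels Kcnh1 and Kcnh7, of the M-current channels Kcnq3 and Kcnq5, and of Hcn2 ran from -0.28 to 0.22 and none was called. The lowest was Kcnq3 at 3 months (-0.28 ± 0.11, adjusted p = 0.143) and the highest Kcnh7 at 12 months (0.22 ± 0.09, adjusted p = 0.104).

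The largest genotype difference of any channel gene was that of Kcnma1 at 12 months. Kcnma1 encodes the pore of the BK channel, a potassium channel of large conductance that opens with voltage and calcium and speeds repolarization of the spike. Kcnma1 read 11.9, 12.2 and 13.2 FPKM in wild type and 21.8, 20.6 and 20.3 in N40K-Tg at 12 months, and 3.52, 4.67 and 3.72 against 3.92, 4.54 and 4.59 at 3 months. The 12-month groups were separate and the 3-month groups overlapped. The 12-month mean was 1.68 times wild type (0.71 ± 0.08, limma adjusted p = 0.000354), and the 3-month difference was 0.11 ± 0.08 (adjusted p = 0.447). In the 25 alternatives the 12-month call was kept, with differences from 0.58 to 0.75.

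Kcnmb4 encodes beta4, the BK subunit most abundant in brain, which slows the channel and changes its calcium sensitivity. It is outside the 50 genes and belongs to a list of other voltage-gated channels. Kcnmb4 read 47.6, 40.6 and 41.9 FPKM in wild type and 27.9, 28.0 and 32.6 in N40K-Tg at 3 months, and 33.2, 33.4 and 31.5 against 17.1, 17.7 and 16.3 at 12 months. All N40K-Tg libraries were below all wild-type libraries of their age. The N40K-Tg mean was 0.680 times wild type at 3 months (-0.54, 95% interval -0.70 to -0.39, limma adjusted p = 0.000835) and 0.521 times at 12 months (-0.90, -1.06 to -0.75, adjusted p = 2.32e-05).

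The pore and the beta4 subunit of the BK channel thus stood in different proportion. The ratio of Kcnma1 to Kcnmb4 within a library was 0.0925 ± 0.0208 in wild type and 0.148 ± 0.0125 in N40K-Tg at 3 months, and 0.381 ± 0.0332 and 1.23 ± 0.0560 at 12 months (SD, n = 3). The 12 values formed 4 groups that did not overlap. This ratio was chosen after its values were seen and has no test. Exons of both genes overlap those of other genes in the annotation, and no source used here gives the strand setting, so their levels may include reads of the partner.

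**Figure D3:**
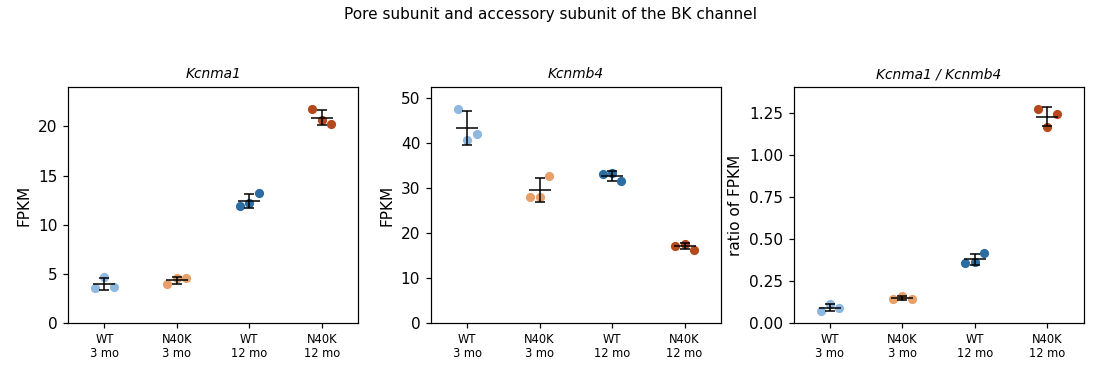
FPKM of Kcnma1 (left) and Kcnmb4 (middle) and their ratio within each library (right), by group. Points are libraries, bars the mean and SD of 3 libraries, and axes start at 0. The ratio runs from 0.0739 to 0.115 in wild type at 3 months and from 1.17 to 1.28 in N40K-Tg at 12 months.

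The 250 bases before the RefSeq starts of both BK subunits are shown because the genes were called in opposite directions in N40K-Tg at 12 months (GRCm38.p6, minus strand, chr14:24004206-24004455 for Kcnma1 and chr10:116473524-116473773 for Kcnmb4). They are 79.2% and 83.6% G and C, and hold 3 and 4 GC boxes, in capitals, read on either strand, of which 2 overlap in Kcnma1. No other motif of the 4 was found in them.
Kcnma1: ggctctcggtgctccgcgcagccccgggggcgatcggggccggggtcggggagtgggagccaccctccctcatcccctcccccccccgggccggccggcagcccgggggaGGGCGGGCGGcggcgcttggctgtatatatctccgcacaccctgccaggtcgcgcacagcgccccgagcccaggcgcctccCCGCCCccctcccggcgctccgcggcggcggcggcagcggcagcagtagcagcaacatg
Kcnmb4: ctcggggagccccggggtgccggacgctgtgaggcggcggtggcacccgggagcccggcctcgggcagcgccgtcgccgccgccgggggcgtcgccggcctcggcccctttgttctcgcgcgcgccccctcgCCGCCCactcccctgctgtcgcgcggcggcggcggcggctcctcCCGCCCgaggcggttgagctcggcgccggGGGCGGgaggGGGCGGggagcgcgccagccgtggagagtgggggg
RefSeq promoter windows of 300 bases, from 250 before to 50 after a start, matched 41 of the 50 channel genes with 65 windows. A GC box was in 30 of these windows (46.2%) and in 35.7% of all 32851 windows. The TATA box was in 6.15% against 13.6%, the E-box in 3.08% against 7.15%, and the cAMP response element in 0 windows against 1.79%. A match is a description of the letters and not a binding site.

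The SK channels, which are opened by calcium alone and produce the afterhyperpolarization, were not called at a single age. Kcnn2 averaged 26.1, 24.5, 24.6 and 25.2 FPKM in wild type and N40K-Tg at 3 months and then at 12 months. Kcnn3 averaged 1.17, 1.46, 1.95 and 2.34 FPKM and was called higher averaged over both ages (0.18 ± 0.06, limma adjusted p = 0.0437). That call was lost in 15 of 23 alternatives, including the omission of any 1 of 9 libraries, which were wild-type replicates 1 and 3 and N40K-Tg replicate 1 of 3 months and all 6 libraries of 12 months (adjusted p from 0.0517 to 0.0909).

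Cytoplasmic partners of Kv channels were lower in N40K-Tg at 12 months where called. Kcnab2, the beta2 subunit that takes Kv1 channels to the axon, had the highest level of the 50 genes, and read 175, 186 and 167 FPKM in wild type and 146, 138 and 138 in N40K-Tg at 12 months. At 3 months Kcnab2 read 188, 165 and 170.3 FPKM against 149, 157 and 158. The libraries did not overlap at either age. Its 12-month mean was 0.799 times wild type (-0.32 ± 0.06, limma adjusted p = 0.00396), and the 3-month difference of -0.17 ± 0.06 was not called (adjusted p = 0.0863). An exon of Kcnab2 overlaps another annotated gene on the same strand.

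Kcnip2 encodes KChIP2, which binds Kv4 channels and increases the A-type current. Kcnip2 read 68.4, 73.5 and 69.6 FPKM in wild type and 62.0, 60.1 and 59.5 in N40K-Tg at 12 months, and 71.1, 77.5 and 74.0 against 78.4, 81.8 and 73.8 at 3 months. The genotypes were separate at 12 months and overlapped at 3 months. Its 12-month mean was 0.858 times wild type (-0.22 ± 0.05, limma adjusted p = 0.0110), which missed the threshold under quantile normalization (adjusted p = 0.0522). Kcnip1, Kcnip3, Kcnip4 and Kcnab1 had differences from -0.09 to 0.03 at both ages, and none was called.

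GIRK channels open when G proteins of inhibitory receptors are activated and hold the cell away from threshold. Kcnj9 (GIRK3) read 24.6, 20.2 and 22.6 FPKM in wild type and 28.3, 29.4 and 26.2 in N40K-Tg at 12 months, and 26.5, 23.8 and 23.0 against 30.0, 27.4 and 28.9 at 3 months. The N40K-Tg libraries were above the wild-type libraries at both ages. The 12-month mean was 1.24 times wild type (0.31 ± 0.07, limma adjusted p = 0.0163) and the 3-month difference was 0.23 ± 0.07 (adjusted p = 0.0761). The 12-month call was lost without wild-type replicate 2 (0.0518) or N40K-Tg replicate 1 (0.0583) or 2 (0.0678) of that age.

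Kcnj3 (GIRK1) read 24.7, 25.4 and 27.2 FPKM in wild type and 28.9, 28.2 and 29.2 in N40K-Tg at 12 months, and 22.1, 22.9 and 22.1 against 22.9, 21.9 and 20.4 at 3 months. Groups were separate at 12 months only. Its 12-month difference was 0.15 ± 0.05 (limma adjusted p = 0.0470). This call was lost in 14 of 25 alternatives, including the omission of any 1 of the 3-month wild-type libraries, N40K-Tg replicate 2 of 3 months, wild-type replicates 1 and 2 of 12 months or any N40K-Tg library of 12 months (adjusted p from 0.0601 to 0.126). Kcnj6 (GIRK2) averaged 1.62, 1.47, 3.07 and 3.38 FPKM in wild type and N40K-Tg at 3 months and then at 12 months and was not called between genotypes.

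No channel gene was called in the test of whether the genotype difference changed with age. By limma 0 of 49 passed, 6 had an unadjusted p under 0.05, and 0 passed in any alternative, while 0.0645% of all entries were called (0.0359% higher and 0.0287% lower). Of the 49 estimates 36 were above 0, with a median of 0.08 beside -0.01 over all entries. The largest estimate was that of Kcnma1, whose difference was 0.60 larger at 12 months (limma adjusted p = 0.112). Cacna1e (0.30, adjusted p = 0.355) and Cacna1g (0.29, adjusted p = 0.467) were also above 0. In the other direction were Kcnip2 (-0.29, adjusted p = 0.141) and Cacnb3 (-0.24, adjusted p = 0.166). A call at 1 age and not at the other is therefore not shown to be a difference between ages for any of the 12 genes.

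As among all entries, more channel genes were called between ages than between genotypes. Between genotypes 11.4% of all entries were called at 3 months and 18.9% at 12 months. Between 3 and 12 months 20 of 49 channel genes were called higher and 2 lower in wild type, where 12.6% of all entries were called higher and 29.0% lower (41.6% in all). In N40K-Tg 23 were higher and 4 lower, against 15.1% and 36.5% of all entries (51.6% in all). In percent of the channel genes this is 40.8 higher and 4.08 lower in wild type and 46.9 higher and 8.16 lower in N40K-Tg. The median difference was 0.10 over the channel genes and -0.08 over all entries in wild type, and 0.16 and -0.10 in N40K-Tg. The 2 ages did not overlap for 25 channel genes in wild type (51.0%, against 50.3% of all entries) and 31 in N40K-Tg (63.3%, against 62.8%). Kcnh7 and Kcnb2 are among the genes called higher in both genotypes, and they passed the filter only through the 12-month libraries, since their 3-month values were 0.279 to 0.452 and 0.767 to 0.945 FPKM. These counts, medians and shares include both. Among the 47 channel genes that reached 1 FPKM in every library, 18 were called higher and 2 lower in wild type and 21 and 4 in N40K-Tg. Of the 12596 entries that did so, 12.4% were higher and 30.0% lower in wild type and 14.8% and 38.4% in N40K-Tg. These comparisons use the same libraries as the genotype comparisons. Age cannot be told apart from library block here, and Xist was high in some 3-month libraries and in no 12-month library. With Xist as a covariate 17 channel genes were called higher and 2 lower with age in wild type, and 23 and 3 in N40K-Tg.

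Kcnq3 and Kcnma1 had the largest age differences among the 47 genes that reached 1 FPKM in every library. Kcnq3, a subunit of the M-current that restrains repetitive firing, averaged 3.68 ± 0.539 FPKM at 3 months and 12.5 ± 0.854 at 12 months in wild type, and 2.88 ± 0.572 and 12.4 ± 1.06 in N40K-Tg (SD, n = 3). Its difference was 1.53 in wild type (limma adjusted p = 5.46e-06) and 1.80 in N40K-Tg (adjusted p = 9.67e-07), and the ages did not overlap. Kcnq5, the other M-current gene, was not called with age (0.09 in wild type and 0.03 in N40K-Tg). Kcnma1 averaged 3.97 ± 0.615 FPKM at 3 months and 12.4 ± 0.687 at 12 months in wild type, which is 3.13 times (adjusted p = 1.04e-06), and 4.35 ± 0.374 and 20.9 ± 0.794 in N40K-Tg, 4.80 times (adjusted p = 1.16e-07). Kcnh7 (Kv11.3), an ERG channel, averaged 0.363 ± 0.0817 and 2.11 ± 0.310 FPKM in wild type and 0.401 ± 0.0515 and 2.62 ± 0.256 in N40K-Tg, with every 3-month library at or below 0.452 FPKM, and its values are given as a description because it was tested only through its 12-month libraries.

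Other large rises were in an A-type channel and the R-type calcium channel. Kcnd3 (Kv4.3) averaged 4.76 ± 0.930 FPKM at 3 months and 10.5 ± 0.638 at 12 months in wild type, and 4.76 ± 0.331 and 10.5 ± 0.212 in N40K-Tg. Cacna1e averaged 12.7 ± 0.855 and 23.4 ± 3.53 FPKM in wild type and 12.6 ± 0.508 and 28.9 ± 2.57 in N40K-Tg. All 4 age calls passed (limma adjusted p at most 0.000116). Of the 4 sodium channel alpha genes 3 were called higher with age in wild type and 4 in N40K-Tg, among them Scn1a (0.42 and 0.53) and Scn2a1 (0.39 and 0.59). Hcn2 and Kcnip4 were called lower in both genotypes (Hcn2 -0.17 and -0.33), and Cacnb3 and Kcnip2 were called lower in N40K-Tg. For no channel gene was the age difference called as different between the genotypes, which is the same test as the interaction above.

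**Figure D4:**
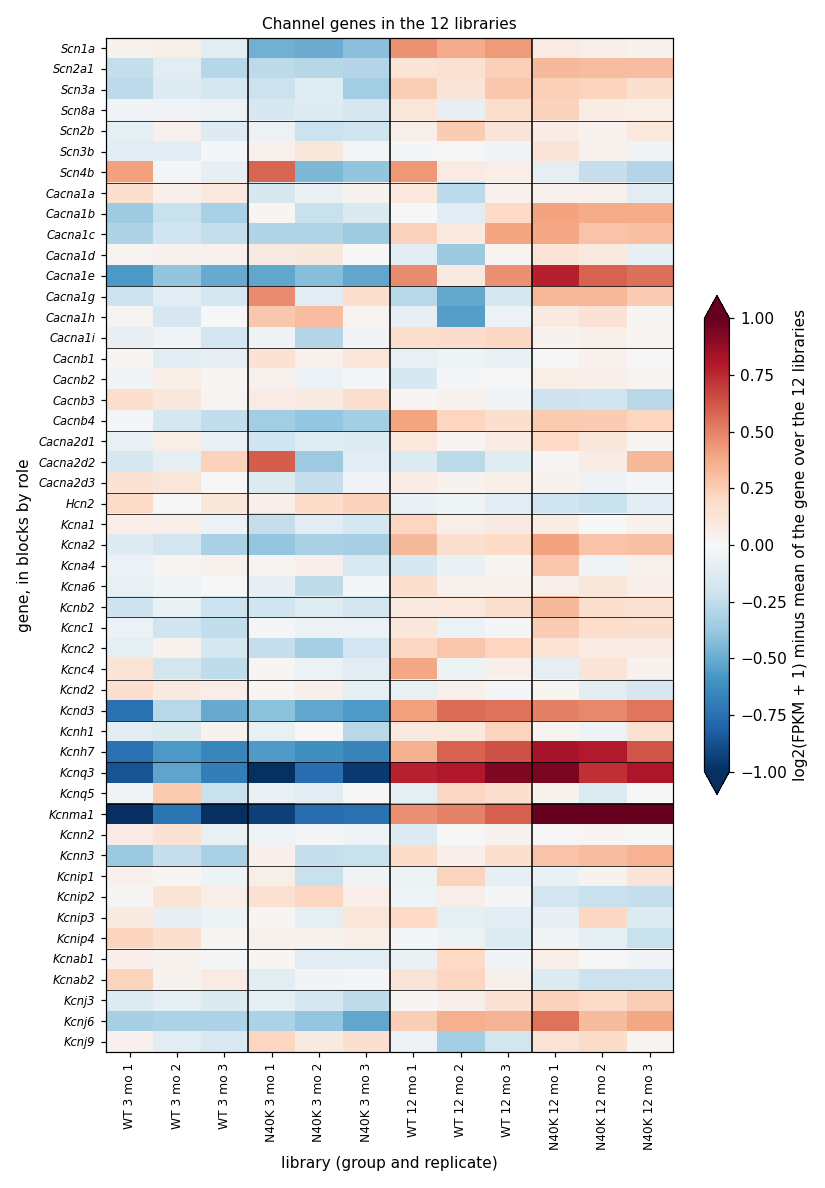
Level of the 49 channel genes tested in each of the 12 libraries, as log2(FPKM + 1) minus the mean of the gene, with genes in blocks by role and groups divided by vertical lines. Colours end at 1 and -1, which values of Kcnma1 and Kcnq3 pass. Kcnq3, Kcnma1, Kcnh7, Kcnd3 and Cacna1e are low in all 3-month libraries and high in the 12-month libraries, and Scn1a is lowest in N40K-Tg at 3 months. Kcnh7 and Kcnb2 passed the filter only through the 12-month libraries.

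The age difference of all entries rose with transcript length. With the 13839 entries of known length in 10 groups of like size by length, the median age difference went from -0.16 in the shortest to 0.18 in the longest group in wild type and from -0.25 to 0.27 in N40K-Tg. Of the 49 channel genes 23 were in the longest group, and their own medians there were 0.33 and 0.44. The median length of the longest transcript was 5807 bases for the channel genes and 3078 for all entries. With each library's trend against transcript length removed, 15 channel genes were called higher and 5 lower in wild type and 20 and 6 in N40K-Tg. With median-ratio scaling the counts were 24 and 0, and 28 and 3, and the share of all age calls that were higher went from 30.3% to 50.3% in wild type and from 29.3% to 52.1% in N40K-Tg. Kcnq3, Kcnma1, Kcnd3 and Cacna1e kept their age calls with the length trend removed, at 1.23, 1.13, 0.89 and 0.44 in wild type. The part of length in the age result beyond this was not tested.

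**Figure D5:**
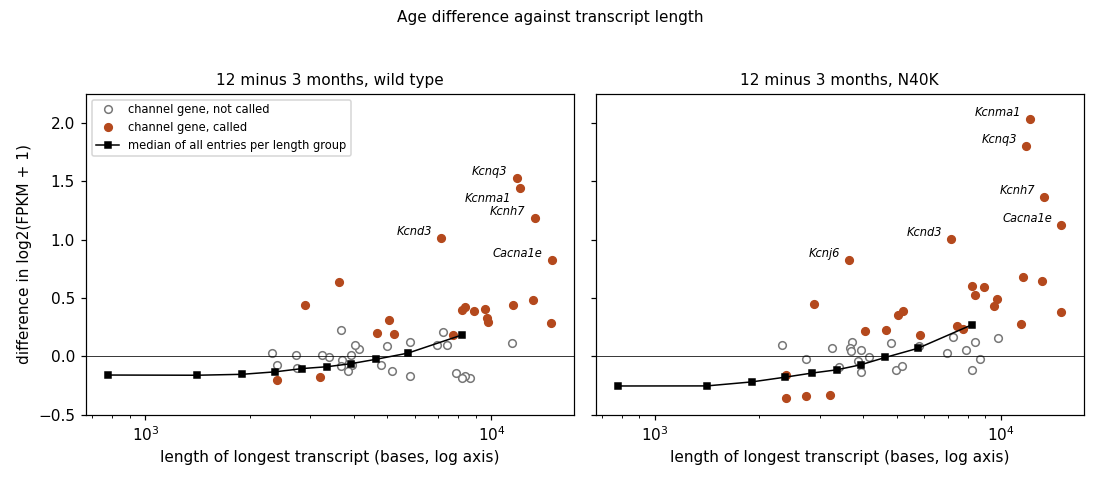
Difference between 12 and 3 months in log2(FPKM + 1) against the length of the longest annotated transcript (log axis) in wild type (left) and N40K-Tg (right). Circles are the 49 channel genes, filled where called, and black squares are the median of all entries in each of 10 groups by length. The squares rise from -0.16 to 0.18 and from -0.25 to 0.27, and the labelled genes lie above them.

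The 50 genes leave out many other channels. Of 61 further voltage-gated channel genes 39 were tested, of which 1 was called higher and 3 lower at 3 months and 2 higher and 4 lower at 12 months, with a median of -0.01 at both ages. In percent this is 2.56 and 7.69 at 3 months and 5.13 and 10.3 at 12 months, beside the 7.95% and 3.49%, and the 11.2% and 7.71%, of all entries. Kcnmb4 and Cacng8, a partner of AMPA receptors, were called lower at both ages, as was Kcnt2, a sodium-activated potassium channel. Cacng8 averaged 79.8 ± 0.707 FPKM in wild type and 63.8 ± 0.554 in N40K-Tg at 3 months, and 73.5 ± 6.09 and 62.2 ± 2.76 at 12 months (SD, n = 3). Single libraries ended 3 of these calls. Cacng8 at 12 months was not called without N40K-Tg replicate 2 of that age (0.0593). Kcnt2 was not called at 3 months without wild-type replicate 2 (0.0763) or N40K-Tg replicate 2 (0.0622) or 3 (0.0529) of that age, or at 12 months without wild-type replicate 2 (0.0526) or 3 (0.0611) or N40K-Tg replicate 3 (0.0675) of that age, all adjusted p of limma. Unc79, a subunit of the sodium leak channel complex, averaged 8.71, 12.1, 10.6 and 12.6 FPKM and was called higher at 3 months (0.44, limma adjusted p = 0.00743).

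Leak channels set the resting potential and the firing of a neuron. Of 22 inward-rectifier and leak potassium channel genes 16 were tested, with 2 called higher at 3 months, 1 at 12 months and 0 lower at either age by limma, and a median of -0.05 and -0.02. The higher calls are 12.5% at 3 months and 6.25% at 12 months, beside 7.95% and 11.2% of all entries. Of all entries 3.49% and 7.71% were called lower. Kcnk9 (TASK-3) was called at both ages, at 2.27 ± 0.314 FPKM in wild type and 3.47 ± 0.747 in N40K-Tg at 3 months and 7.97 ± 0.845 and 11.6 ± 1.08 at 12 months, with its groups separate at both ages. At 3 months the Kcnk9 call was lost without any 1 of 8 libraries, which were wild-type replicates 1, 2 and 3 and N40K-Tg replicates 1 and 2 of 3 months and wild-type replicate 1 and N40K-Tg replicates 1 and 2 of 12 months (limma adjusted p from 0.0529 to 0.136). At 12 months it was lost without wild-type replicate 2 (0.0684) or N40K-Tg replicate 1 (0.0755) or 2 (0.0633) of that age. Kcnk4 and Kcnk10 (TRAAK and TREK-2) were called higher when averaged over both ages. Those calls were lost without N40K-Tg replicate 1 (0.0502) or 2 (0.0536) of 12 months for Kcnk4, and without wild-type replicate 1 (0.0635) or N40K-Tg replicate 2 (0.0674) of 3 months or N40K-Tg replicate 2 of 12 months (0.0682) for Kcnk10.

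Partners that place channels on the axon showed 4 of 25 tested genes lower at 3 months and 1 higher and 1 lower at 12 months, with medians of -0.05 and 0.03. At 3 months this is 0% higher and 16% lower, beside 7.95% and 3.49% of all entries. At 12 months it is 4% higher and 4% lower, beside 11.2% and 7.71%. Cntnap1 (Caspr), which flanks the node of Ranvier, was the 1 called at both ages, at 52.4 ± 3.95 FPKM in wild type and 38.8 ± 1.49 in N40K-Tg at 3 months and 46.3 ± 5.76 and 35.3 ± 1.20 at 12 months. Averaged over both ages Dpp6, a partner of Kv4 channels, and Fgf13, a cytoplasmic partner of sodium channels, were called lower (-0.11 and -0.14), and Sptbn4, the spectrin of the initial segment, higher (0.24). Sptbn4 was not called without wild-type replicate 2 of 3 months (limma adjusted p = 0.0515), and Fgf13 without any 1 of 7 libraries, which were wild-type replicates 1 and 2 and N40K-Tg replicates 1 and 3 of 3 months and wild-type replicate 2 and N40K-Tg replicates 2 and 3 of 12 months (adjusted p from 0.0599 to 0.0859). Dpp6 was not called under quantile normalization (limma adjusted p = 0.185), with the gene span trend removed (-0.05, adjusted p = 0.206) or with the replicate block (-0.11, adjusted p = 0.0505).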

How the data were processed

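The 12 libraries were made from hippocampal poly-A RNA with the TruSeq chemistry and read from both ends, per the labels' protocols. The authors deposited FPKM values in 1 table with a column per library, all 12 columns matched the labels, and 0 were left over. STAR, BWA, CASAVA and the build mm9 are listed, without roles, per the submitters' processing notes. The strand setting, annotation and counting tool are not given in the sources used here. The table is therefore not tested with a count model. Low FPKM values of 1082 receptor genes lie on steps of about 1 read, which gave an approximate depth per library (54.2% to 74.2% of these values were whole numbers of reads, tolerance 0.02).

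A single limma model (limma 3.58.1 under R 4.3.3) with 1 mean per group was fitted to log2(FPKM + 1) of the 13945 entries with at least 1 FPKM in at least 3 libraries, with eBayes and a mean-variance trend. Tests were two-sided with Benjamini-Hochberg adjustment over all entries of a contrast and a threshold of 0.05. The channel genes and the gene lists were chosen with earlier results of these data known. Values in every library are given for channel genes called between genotypes at 3 or 12 months, and up to 4 called genes with the smallest p averaged over both ages are named from each list of other channels and partners. Transcript length, GC content and overlapping exons came from GENCODE M21, on another build, with no coordinates used. Of the 50 channel genes 19 overlap exons of another annotated gene, mostly on the opposite strand. Promoter sequences are RefSeq's on GRCm38.p6.

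The fit was repeated with 1 change at a time: a pseudocount of 0.1 or 0.5; all entries, or those averaging 5 FPKM or more; quantile normalization or median-ratio scaling; Xist as a covariate; a replicate block; robust eBayes; separate fits for the ages; lowess trends (span 0.3) on length or GC content of transcripts subtracted within each library; and omission of every library in turn. The trend on gene span was added after seeing the data. Tables were prepared in Python 3.11.15 (numpy 2.4.6, pandas 2.3.3) and plots in matplotlib 3.10.9.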

Additional observations from a re-analysis of the deposited data

How the results depend on the processing

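At 3 months the 1 channel gene called higher became 0 with quantile normalization, median-ratio scaling, the replicate block, Xist as a covariate, each age fitted alone, and the length, GC or gene span trend removed. The 3 called lower became 5 with quantile normalization and 1 with Xist as a covariate, with the replicate block or with each age fitted alone. Averaged over both ages, the 8 called higher became 4 with the GC trend removed. The cause of these changes was not tested. Leaving out 1 library at a time gave 0 to 3 higher and 1 to 5 lower at 3 months, 3 to 8 higher and 4 to 4 lower at 12 months, 6 to 8 higher and 5 to 7 lower averaged over both ages, 0 to 0 in the interaction, and 20 to 23 and 25 to 28 called with age in wild type and N40K-Tg.

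Replicate numbers showed no clear pairing of the libraries. This check cannot exclude a pairing, since deviations from the mean of 3 libraries are not independent of each other. The correlation of deviations from the group means between wild-type and N40K-Tg libraries with the same number was 0.057, -0.456 and -0.349 at 3 months and 0.073, 0.001 and 0.197 at 12 months, and not every library correlated best with its own number. With the replicate block 0 channel genes were called higher and 1 lower at 3 months, 5 and 4 at 12 months, and 6 and 4 averaged over both ages. No named gene changed direction in 1627 repeats over 67 results, and 145 repeats lost a call. Groups of 3 libraries and unknown counts limit what can be resolved, above all for genes near 1 FPKM.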
